A study of Mus musculus with 6 samples.

Results

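Mature oligodendrocytes (OLs) are the cells that wrap the axons of the brain in myelin. In the NG2-tdT+ cells of this series they are the cells that the study's clustering put in cluster 4. They number 989 of the 10455 NG2-tdT+ cells, and the series holds 17033 cells over 6 libraries. All 989 were used: 103 from naïve cortex, 294 after physical injury and 592 after ischemic injury. Each of the 3 groups is 1 droplet library of tdT+/DAPI- cells, sorted from the pooled cerebral cortex of NG2-Cre-ERT2/Ai14-flx mice that were 3 to 4 months old. All groups carry the inducible Cre and the tdTomato reporter, and all had received tamoxifen. The naïve mice had no injury. The physical injury was an intracerebral injection of saline, and the ischemic injury was one of ET-1 (endothelin-1, which constricts vessels) with L-NAME (which blocks nitric oxide synthesis). Injury followed tamoxifen by 7 days and the cells were collected 3 days after it. Animals were pooled and each group is 1 library, so none of the differences below has a replicate check and no test was made.

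OLs arise from oligodendrocyte precursor cells (OPCs), which make the proteoglycan NG2, encoded by Cspg4. Pericytes of brain capillaries also make NG2, and mature OLs do not. After injury or in demyelinating disease, OLs can take on states that are known for the protease inhibitor Serpina3n, the complement component C4b and antigen presentation genes. The driver in these mice reports that a cell, or a cell it descends from, used the Cspg4 promoter after tamoxifen. The sort keeps labelled cells only, so the shares below describe labelled cells and not the tissue.

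The identity of the cells follows their markers. Levels are UMIs of a gene summed over the cells of a library and given as counts per 1000000 summed UMIs (CPM), with 95% exact Poisson intervals that cover counting error only. All 5 markers given for this cell type, Mog, Mobp, Opalin, Ermn and Mag, had a UMI in 97 of 103 naïve cells, in 292 of 294 after physical injury and in 555 of 592 after ischemic injury. At least 3 of them had a UMI in 100, 294 and 584 cells. Of the 8 ischemic injury cells below 3 markers the median depth was 803 UMIs. Mog, a surface protein of the outer myelin sheet, was at 2069 CPM in the naïve cells, 2537 CPM after physical injury and 2924 CPM after ischemic injury. The remaining cells of each library had 10.1, 10.0 and 12.1 CPM. Opalin, a membrane protein of mature OLs, was at 1927, 2024 and 2109 CPM in the 3 libraries, against 5.80, 2.84 and 8.98 CPM in the remaining cells. The clusters were formed on expression, so these levels describe the cells and do not test their name.

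The genes that led cluster 4 against the rest of each library belonged to the same cell type. In the naïve library the largest ratio was that of Ptgds, a prostaglandin D2 synthase abundant in mature OLs, at 21396 CPM against 43.2 CPM. Ermn, a cytoskeletal protein of OLs, followed at 1729 CPM against 3.80 CPM. After physical injury Opalin led, and after ischemic injury Ermn led, at 1300 CPM against 4.76 CPM. Aspa and Gpr37 were among the 10 leading genes of all 3 libraries. The cells hardly held Cspg4 itself: it was at 5.35, 5.25 and 7.74 CPM, against 660, 407 and 236 CPM in the other cells. Pdgfra, the receptor that defines OPCs, was at 0, 0.710 and 2.77 CPM. How the cells came to carry the label was not tested.

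Markers of most other cells were low. The 8 pericyte markers summed to 335 CPM in naïve, 167 CPM in physical injury and 165 CPM in ischemic injury cells. Their most abundant gene, Vtn, was at 196, 84.2 and 67.8 CPM, and 1 cell held 40.2% of its naïve and 42.8% of its physical injury UMIs. The ischemic difference of Vtn in OLs changed sign with cells limited to 5% mitochondrial transcripts and depth within 2 SD. In the other cells of these libraries Vtn stood at 13864.5, 6760 and 3365 CPM. The microglial C1qa was at 0, 0.568 and 1.96 CPM and Tmem119 was at 0 in all 3 libraries. Cx3cr1, a chemokine receptor of microglia, was at 4.59, 2.98 and 6.24 CPM. Gfap, the filament of astrocytes, was at 0, 0.568 and 1.27 CPM, and Snap25 of neurons was at 2.29, 1.42 and 2.14 CPM. The 7 OPC markers summed to 28.3, 68.9 and 134 CPM, most of it Lhfpl3, which was at 16.05, 51.1 and 98.6 CPM. The 5 markers of radial glial precursors were not low, with a sum of 1758, 1255 and 1455 CPM. Nearly all of it was Dbi, a binding protein of acyl-CoA that many glia make, at 1646, 1143 and 1315 CPM in OLs and 247, 623 and 1729 CPM in the other cells, while the cycling gene Top2a was at 0, 0.284 and 2.66 CPM in OLs. The part of free RNA from other cells in these small values was not tested.

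The libraries differed in depth, and OLs were the deepest of the 3 cell types compared. The naïve OLs had a median of 13252 UMIs per cell (range 562 to 22390), the physical injury OLs 23779 (751 to 39772) and the ischemic injury OLs 29600.5 (471 to 65938). Their summed counts were 1308541, 7043346 and 17314657 UMIs. For a gene with no UMI in the naïve OLs, folds were taken against a floor of 3 counts, which is 2.29 CPM there. The 95% exact Poisson upper limit of 0 UMIs is 2.82 CPM, above that floor, so such folds are not lower bounds. OPCs (cluster 6) had medians of 4691.5, 12390 and 11764.5 UMIs and pericytes (cluster 1) of 3054.5, 3843.5 and 2984 UMIs. The naïve library was thus the shallowest for both cells of the OL lineage, but not for pericytes. The deepest naïve OL, at 22390 UMIs, is also the deepest cell of its library, and the same holds for physical injury at 39772 UMIs. Whether the upper limit that was set on UMIs removed deeper OLs was not tested. Median mitochondrial transcripts were 4.78%, 4.18% and 3.15%. Libraries shared no barcode within cluster 4, and 1 of its barcodes was found in another cluster of another library. In the study's separate clustering of the naïve data, 96 of the 103 naïve cells lay in 1 cluster and 7, with a median of 838 UMIs, in another.

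**Figure D1:**
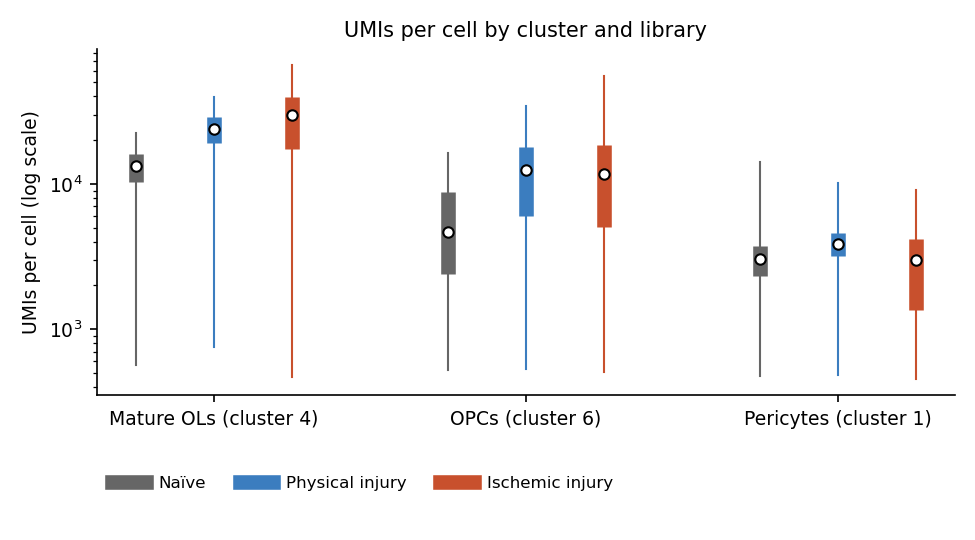
UMIs per cell (log scale) for mature OLs, OPCs and pericytes in the 3 libraries: circles are medians, thick bars run from the lower to the upper quartile and thin lines from the lowest to the highest cell. The median of the OLs steps from 13252 to 23779 and 29600.5 UMIs, while that of pericytes stays between 2984 and 3843.5.

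OLs made up 2.39% (exact Clopper-Pearson interval 1.96% to 2.89%) of the naïve library, 11.5% (10.3% to 12.8%) of the physical injury library and 16.5% (15.3% to 17.8%) of the ischemic injury library. These shares move with every other cell type in the sort. Among OLs and OPCs together (clusters 4 and 6), OLs were 50.7% (43.6% to 57.8%), 49.4% (45.3% to 53.5%) and 66.8% (63.6% to 69.9%). The share after physical injury minus that in naïve was -1.33 percentage points (-9.49 to 6.86), and the share after ischemic injury minus that in naïve was 16.1 points (8.32 to 23.8). With cluster 7, named radial glial precursors, also in the denominator, the shares were 46.8%, 43.8% and 44.7%, and the ischemic difference was -2.11 points (-9.45 to 5.16). The higher ischemic share is thus seen against OPCs and not against both neighbouring clusters. A stricter filter took at most 5% mitochondrial transcripts and depth within 2 SD of the mean over all cells of a library. Naïve OLs had a median of 13252 UMIs, against 4043 for all cells of that library. The filter keeps 10 of 103, 112 of 294 and 420 of 592 OLs. With it the shares among OLs and OPCs were 17.9%, 33.2% and 62.8%, and the physical injury share lay above the naïve one. The part of OLs kept differs this much between libraries, so these shares cannot describe a difference in OL number. The naïve library had 17 cells in cluster 7, the physical injury library 76 and the ischemic injury library 438.

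Myelin genes were at high levels in all 3 libraries. Mobp, a protein of compact central myelin, was at 1872 CPM in naïve, 2625 CPM in physical injury and 3020 CPM in ischemic injury OLs. Mag, an adhesion protein facing the axon, was at 2902, 2811 and 4118 CPM. Genes were compared where they reached 50 CPM in either library of a comparison, on log2(CPM + 1), and were counted as higher or lower at a log2 ratio of 1 or more (2-fold). A gene below 50 CPM in one library of a comparison could enter only through the other, where it is higher, so for such a gene the minimum helped to fix the call. None of the 15 genes of myelin proteins passed this in either comparison, where 0.778% of 3599 genes were higher and 0.889% lower after physical injury, and 2.97% of 3700 genes were higher and 2.22% lower after ischemic injury. Their median log2 ratio was 0.21 after physical and 0.48 after ischemic injury, against -0.04 and 0.01 over all genes compared. Ermn was the 1 member below its naïve level after ischemic injury, at 1729, 1454 and 1300 CPM.

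The regulators of the lineage varied little. Of the 11 transcription factors of OLs on the list, 9 were compared and none passed 2-fold, with medians of -0.05 in both comparisons. Olig1 was at 977, 1104 and 1186 CPM. Sox10, which drives myelin genes, was at 370, 269 and 254 CPM, and Myrf, the master regulator of myelination, at 235, 222 and 234 CPM. The 3 levels of Myrf thus lay close together. The list of paranodal and myelin lipid genes gave none past 2-fold among 14 compared. Members with a higher ischemic level included Nfasc, an anchor of the paranode, at 665, 774 and 1241 CPM, and the deacetylase Sirt2, at 807, 860 and 1395 CPM. Aspa, which supplies acetate for myelin lipid, ran the opposite way, at 855, 788 and 531 CPM. Of the markers of newly formed OLs 3 were compared and none passed 2-fold. All 3 lay above their naïve level after physical injury. After ischemic injury 2 did and 1, Bcas1, lay below. The medians were 0.37 and 0.26 on the log2 scale. Enpp6, below the minimum, was at 17.6, 9.37 and 16.9 CPM. Bcas1 was at 967, 970 and 649 CPM, an ischemic level 0.671-fold (0.633 to 0.712) the naïve one.

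Cholesterol is needed in quantity for myelin, and the genes of its synthesis lay mostly above their naïve level, with 1 member past 2-fold. The list holds 21 genes. After physical injury 13 of the 14 members compared lay above their naïve level, and after ischemic injury all 15 did. Their medians were 0.46 and 0.49 on the log2 scale, against -0.04 and 0.01 over all genes compared. Hmgcs1, an early enzyme of the pathway, was at 327, 608 and 640 CPM. That is 1.86-fold higher (1.68 to 2.06) after physical and 1.96-fold higher (1.78 to 2.16) after ischemic injury. Cyp51, a later step, was at 178, 279 and 333 CPM. Hsd17b7, which acts near the end of the pathway and also converts steroid hormones, was the only member past 2-fold. It entered the ischemic comparison only through its ischemic level, which makes it the added member among the 15. It was at 32.9, 49.98 and 248 CPM, and the ischemic injury level was 7.56-fold (5.60 to 10.5) that of naïve OLs and 4.97-fold (4.46 to 5.56) that of physical injury OLs.

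Past 2-fold after physical injury were 28 higher and 32 lower genes, and after ischemic injury 110 higher and 82 lower genes. Both comparisons use the same naïve library. Of the higher genes 22 were in both lists, 78.6% of the physical and 20% of the ischemic list. Of the lower genes 27 were in both, 84.4% of the physical and 32.9% of the ischemic list. Genes were named where they had the 12 largest ratios each way and were higher in OLs than in the other cells of the library with the higher level. The last criterion passed over 13 higher and 7 lower genes after physical injury and 16 higher and 8 lower genes after ischemic injury. With cells thinned to 2000 UMIs the counts were 144 higher and 166 lower genes after physical injury and 211 and 141 after ischemic injury. The naïve sum then comes from 98 cells at 2000 UMIs each, against 1308541 UMIs before. The same minimum thus rests on far fewer counts, and ratios vary more by counting error. How many of these genes passed for that reason was not tested.

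Serpina3n, which encodes a secreted serine protease inhibitor (chr12:104406729-104414329, mm10, plus strand), had the largest ratio in both comparisons. It had no UMI in the 103 naïve OLs, 635 UMIs or 90.2 CPM (83.3 to 97.4) in physical injury OLs and 6462 UMIs or 373 CPM (364 to 382) in ischemic injury OLs. Against the naïve floor of 3 counts it was 39.3-fold higher after physical and 163-fold higher after ischemic injury. A UMI was present in 24 of 294 and in 177 of 592 OLs. Within the physical injury library a single cell held 296 of the 635 UMIs, and without it the level was 48.4 CPM. After ischemic injury the cell with most UMIs held 3.51% of them, so there the signal was spread over many cells. With each cell thinned to 2000 UMIs, which left out 5, 3 and 29 shallower OLs, 0% (0% to 3.69%), 3.09% (1.42% to 5.79%) and 16.5% (13.5% to 19.8%) of OLs had a UMI. Pericytes of cluster 1, thinned alike with 167, 34 and 92 left out, gave 0%, 0% and 2.30%. The mouse genome holds a cluster of close relatives of this gene, and reads shared among them cannot be told apart here.

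Klk6, a secreted serine protease of OLs (chr7:43824499-43832030, plus strand), showed the same order. It had no UMI in naïve OLs, 217 UMIs in 14 cells or 30.8 CPM after physical injury (28.6% of them in a single cell), and 2720 UMIs in 113 cells or 157 CPM (151 to 163) after ischemic injury. The ischemic level is 68.5-fold the naïve floor. Outside OLs Klk6 stood at 0, 0.0567 and 0.947 CPM. OPCs had 2.53 CPM after ischemic injury and cluster 7 had 0.792 CPM. Serpina3n was also found in OPCs, at 14.1, 135 and 382 CPM, and in cluster 7, at 0, 358 and 233 CPM. Other members of the list for the Klk6-rich OL state did not reach 50 CPM: Anxa5 was at 24.5, 11.8 and 24.2 CPM and S100b at 10.7, 5.96 and 13.6 CPM.

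C4b, a complement component (chr17:34728380-34743882, minus strand), was at 5.35 CPM from 7 UMIs in naïve, 49.98 CPM in physical injury and 137 CPM in ischemic injury OLs. The ischemic level was 25.5-fold (12.4 to 63.6) the naïve one, and the physical injury level, just below the minimum for comparison, was 9.34-fold (4.49 to 23.4). C4a is nearly identical and may share reads with it. Masp1, a protease that starts the lectin branch of complement, was at 7.64, 28.5 and 63.1 CPM. Both complement genes were thus lowest in naïve and highest in ischemic injury OLs. C4b took the same order in OPCs, at 1.76, 36.2 and 86.6 CPM. In cluster 7 it was at 0, 68.0 and 19.7 CPM, higher after physical than after ischemic injury. The naïve 0 there comes from 17 cells and has an upper limit of 124 CPM, so its place in the order is not known.

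Of the genes of major histocompatibility complex (MHC) class I presentation, 3 of 11 reached 50 CPM, and only in the ischemic library. H2-D1, a classical class I heavy chain, was at 29.8 CPM in naïve, 43.9 CPM in physical injury and 117 CPM in ischemic injury OLs, a 3.92-fold (2.86 to 5.53) ischemic difference. Its partner B2m was at 34.4, 39.6 and 111 CPM, and H2-K1 at 16.8, 35.4 and 65.8 CPM. These 3 were below 50 CPM in naïve OLs and entered the comparison through their ischemic level alone, so that their all being past 2-fold says nothing of the list, and the other 8 members were not compared. The peptide transporter Tap1 stayed at 0.764, 0.994 and 1.04 CPM and the MHC class II gene H2-Ab1 at 0, 0.568 and 1.21 CPM. Over the other cells pooled, H2-D1 was at 318, 409 and 362 CPM and B2m at 252, 450 and 640 CPM. In OPCs H2-D1 was at 111, 165 and 218 CPM and B2m at 63.3, 134 and 250 CPM, so both were also highest there after ischemic injury. Pericytes of cluster 1 had H2-D1 at 359, 332 and 325 CPM and B2m at 224, 223 and 336 CPM. Cluster 7 had H2-D1 at 470 CPM in naïve (14 UMIs in 17 cells), 124 CPM after physical and 93.5 CPM after ischemic injury. The list of disease-associated OLs, which shares these genes with the class I list, had 5 higher members, Serpina3n, C4b, H2-D1, H2-K1 and B2m, and 1 lower, Il33, of 8 compared after ischemic injury. The 5 higher members were all below 50 CPM in naïve OLs and were compared only because of their ischemic level, so this count describes them and not the list. After physical injury it had Serpina3n higher and Il33 lower of 4 compared. Of the 20 interferon response genes 2 reached 50 CPM and neither passed. Bst2, below that limit, was at 0.764, 3.12 and 26.6 CPM.

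**Figure D2:**
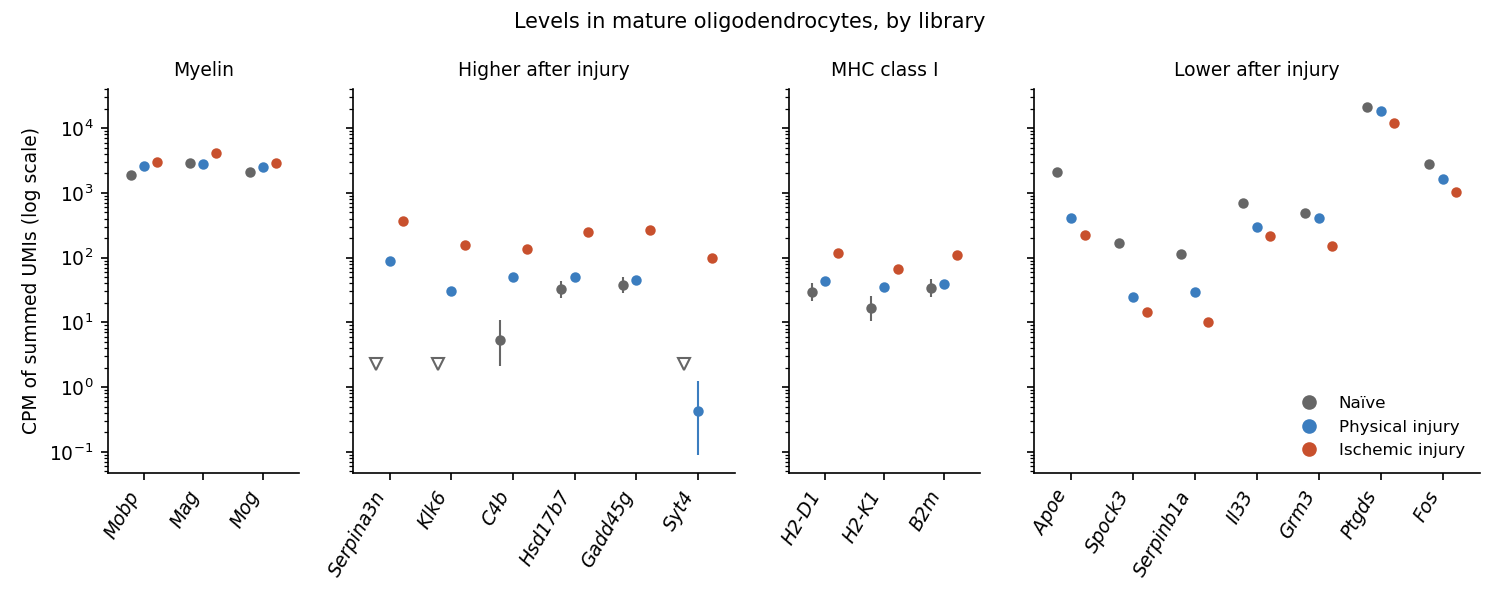
Levels of named genes in mature OLs of the 3 libraries, as CPM of summed UMIs on a log scale, with 95% exact Poisson intervals. Open triangles mark genes with no UMI in naïve OLs, drawn at 2.29 CPM, the level of 3 counts. Serpina3n, Klk6 and C4b climb from naïve to physical to ischemic injury, Hsd17b7, Gadd45g and the class I genes stand out in the ischemic library, and Apoe, Spock3 and Serpinb1a descend.

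Other genes stood out in the ischemic library. Gadd45g, a stress and differentiation gene that binds cell cycle kinases, was at 38.2, 44.6 and 266 CPM. It was 6.97-fold higher (5.28 to 9.41) after ischemic injury, and after physical injury the ratio was 1.17 (0.864 to 1.61). Cdkn1a, the cell cycle inhibitor p21, was at 3.82, 8.52 and 83.5 CPM, a ratio of 21.9 (9.34 to 67.4) for the ischemic library. The other cells held more of it, at 118, 274 and 229.5 CPM. Syt4, a vesicle protein, had no UMI in naïve, 3 UMIs in physical injury and 1725 UMIs or 99.6 CPM in ischemic injury OLs. That last level is 43.5-fold the floor, and 1 cell held 13.2% of the ischemic UMIs. Bcat1, which breaks down branched-chain amino acids, was at 3.82, 9.09 and 57.1 CPM. The sodium channel gene Scn8a was at 6.11, 24.6 and 50.9 CPM, Tspan9 at 8.41, 12.9 and 56.3 CPM and Ralgps2 at 6.88, 5.96 and 54.9 CPM. The naïve levels of these 4 genes rest on 5, 8, 11 and 9 UMIs. OPCs were likewise highest after ischemic injury in Gadd45g, at 24.6, 58.1 and 166 CPM, in Cdkn1a, at 7.03, 21.9 and 90.1 CPM, and in Syt4, at 24.6, 34.3 and 125 CPM. The metallothionein Mt2 was at 11.5, 13.3 and 107 CPM, with 213 CPM in the other ischemic injury cells, and the chemokine Cxcl12 at 24.5, 61.9 and 150 CPM, with 202 CPM in the other ischemic injury cells.

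Most of the 12 genes named for a higher level after physical injury were higher still after ischemic injury. Man1a, a mannosidase of the Golgi, was at 129, 368 and 496 CPM. Its ratio was 2.85 (2.44 to 3.35) after physical and 3.84 (3.30 to 4.50) after ischemic injury. The protocadherin Pcdh7 was at 165, 378 and 470 CPM, the ribosome assembly factor Tma16 at 90.2, 211 and 308 CPM and the steroid reductase Srd5a1 at 74.9, 163 and 209 CPM. Cntn3, Rnf122 and Chsy3 followed the same order, and Cacna2d4, at 25.2, 60.6 and 63.1 CPM, differed between the injured libraries by less than counting error (ratio 1.04, 0.930 to 1.17). The levels of the first 3 were between 26.7 and 36.7 CPM in naïve and between 103 and 113 CPM in ischemic injury OLs. Vegfa, the growth factor of vessels, was an exception, at 37.4, 91.7 and 51.1 CPM. Its ischemic level was 0.557-fold (0.503 to 0.618) that after physical injury. OPCs held more Vegfa, at 125, 211 and 101 CPM, and also had their highest level after physical injury. Cecr2 and Fbxl20, at 17.6, 54.0 and 32.7 CPM and at 22.2, 50.3 and 42.5 CPM, were likewise highest after physical injury. Of 16 hypoxia and glycolysis genes compared, Vegfa and Ldha were higher after physical and Ldha alone after ischemic injury. Both were under 50 CPM in naïve OLs and were compared through their injured levels. Ldha, which makes lactate, was at 22.9, 79.5 and 99.9 CPM, below the 226, 210 and 375 CPM of the other cells. Ndrg1, the most abundant member and also a gene of myelinating cells, ran the opposite way, at 771, 615 and 410 CPM.

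Apoe, the lipid carrier (chr7:19696109-19699188, minus strand), was among the 3 genes with the largest ratios on the lower side in both comparisons. It was at 2115 CPM (2037 to 2195) in naïve, 409 CPM (394 to 424) in physical injury and 220 CPM (213 to 227) in ischemic injury OLs. That is 5.17-fold (4.91 to 5.45) lower after physical and 9.61-fold (9.15 to 10.1) lower after ischemic injury. No single OL held more than 4.62% of its UMIs in a library. A UMI was found in 78.6%, 37.1% and 23.4% of OLs thinned to 2000 UMIs, against 27.2%, 28.5% and 24.9% of pericytes, so that the ischemic share lay at the pericyte level. In the pericytes of cluster 1 the level was 231, 190 and 180 CPM, in OPCs 2795, 2282 and 1285 CPM, and in microglia (cluster 9) 900, 2077 and 5250 CPM. It was also lower after injury in cluster 7, at 3253, 580 and 269 CPM, and in the mesenchymal-like pericytes of cluster 8, at 1246, 404 and 104 CPM. A lower level after injury was thus not particular to OLs.

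Spock3, an extracellular proteoglycan (chr8:62951009-63357103, plus strand), was at 166, 24.7 and 14.5 CPM. It was 6.71-fold (5.47 to 8.24) lower after physical and 11.4-fold (9.49 to 13.8) lower after ischemic injury. Serpinb1a, an inhibitor of granule proteases (chr13:32842092-32851185, minus strand), was at 112, 30.0 and 9.99 CPM, 3.75-fold (3.02 to 4.65) and 11.2-fold (8.96 to 14.1) lower. Thinned to 2000 UMIs, 24.5%, 4.12% and 3.73% of OLs had a Spock3 UMI and 15.3%, 5.50% and 2.84% a Serpinb1a UMI, while no pericyte had either. Over all other cells of a library pooled, neither was above 3.18 CPM, and Serpinb1a was at 15.7, 12.2 and 8.86 CPM in endothelial cells (cluster 5). Without thinning the shares were 48.5%, 13.6% and 7.77% for Spock3 and 43.7%, 18.4% and 10.3% for Serpinb1a, lowest in the deepest library.

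Further genes of mature OLs were lower in both. Il33, an alarmin kept in the nucleus of OLs (chr19:29925114-29960718, plus strand), was at 706, 293 and 219 CPM, 2.41-fold (2.23 to 2.61) and 3.22-fold (2.99 to 3.46) lower. It is a member of the list of the Ptgds-rich OL state, together with Ptgds, at 21396, 18504 and 12043 CPM, the carbonic anhydrase Car2, at 3340, 1929 and 1861 CPM, and the glutamate receptor Grm3, at 485, 412 and 153 CPM. Of the 7 members, Il33 passed after physical injury and Il33 and Grm3 after ischemic injury, with medians of -0.46 and -0.83 on the log2 scale. Over the other cells pooled Grm3 was at 563, 381 and 112 CPM, values that also depend on their mix of cell types. In pericytes of cluster 1, thinned as for Spock3, 57.0%, 65.1% and 46.5% of cells had a Grm3 UMI. Within these pericytes the share was thus higher after physical injury and lower after ischemic injury than in naïve. Hapln2, which links matrix at the nodes of Ranvier, was at 95.5, 40.2 and 27.3 CPM. Sez6l2 was at 460, 210 and 124 CPM, Tmem144 at 62.7, 21.9 and 13.1 CPM, Ankub1 at 122, 54.7 and 31.5 CPM, and the peripheral myelin gene Pmp22 at 52.7, 16.2 and 10.7 CPM. March1, a ubiquitin ligase, Klhl4 and Nacc2 took the same course between 307 and 16.5 CPM. The glutathione transferase Gstp1, whose close copy Gstp2 may share its reads, was at 138, 65.3 and 41.2 CPM. Htra1 and S100a1 were lowest after physical injury, at 148, 55.5 and 86.6 CPM and at 158, 66.0 and 89.6 CPM, and Prrg1, Tenm2 and Kctd16 were between 15.8 and 30.2 CPM in both injured libraries, from naïve levels of 69.5, 79.5 and 54.3 CPM. The physical injury ratios of Tenm2 and Kctd16 changed sign under the stricter filter on mitochondrial transcripts and depth. Fth1, the iron store ferritin, was at 14610, 9680 and 7827 CPM, which stays under 2-fold.

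Immediate early genes are switched on within minutes of a stimulus and also during dissociation. Most of those compared lay below their naïve level in the injured libraries. Fos was at 2842, 1651 and 1037 CPM and Jun at 1238, 775 and 552 CPM. Of 14 members compared, 13 lay below the naïve level after physical injury with none past 2-fold in either direction, and Ier2 was the exception, at 73.4, 82.9 and 32.4 CPM. After ischemic injury all 14 lay below the naïve level, with 8 past 2-fold (Fos, Fosb, Jun, Egr1, Ier2, Btg2, Dusp1 and Nr4a1). Of all 3700 genes compared there, 2.22% were lower. The medians of the list were -0.46 and -1.12, against -0.04 and 0.01 over all genes compared. Over the other cells pooled Fos was at 5984, 3757 and 3199 CPM, a value that also depends on their mix of cell types. In pericytes it was at 9475, 4338 and 9850 CPM in cluster 0 and at 1897, 625 and 1357 CPM in cluster 1. Cluster 2 had 1821, 970 and 1972 CPM. In OPCs Fos was at 1503, 2414 and 2466 CPM. The heat shock list had 1 member past 2-fold, Hspa1a, at 84.1, 123 and 39.97 CPM, and Cryab, its most abundant member, was at 4435, 3401 and 2814 CPM. Of 18 genes of the integrated and ER stress response 6 were compared and none passed, with medians of -0.32 and -0.31. Phgdh, which opens serine synthesis, was at 488, 376 and 312 CPM, and the stress gene Ddit3 at 84.1, 59.6 and 55.2 CPM.

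The other lists had few members past 2-fold. Of the 12 genes of STAT3 signalling, 2 were compared after physical and 3 after ischemic injury, too few to describe the list. Stat3 itself passed after physical injury, at 71.8, 156 and 140 CPM. Its feedback inhibitor Socs3 passed after ischemic injury, at 32.1, 33.4 and 80.0 CPM, and was compared only because of that last level. Of the p53 and cell death list Gadd45b was lower after physical injury, at 105, 46.9 and 136 CPM, and Cdkn1a higher after ischemic injury. Under the stricter filter on mitochondrial transcripts and depth the log2 ratios of Socs3 and Gadd45b changed sign, to -0.58 and 0.43. Of 8 cytoskeletal and injury genes compared after ischemic injury, S100a6, at 43.6, 43.2 and 194 CPM, and Marcksl1, at 88.6, 120 and 228 CPM, were higher, and 7 compared after physical injury had none. S100a6 could be compared only through its ischemic level, so the difference between these counts is in part set by the minimum. Iron and antioxidant genes had Gstp1 lower in both and Mt2 higher after ischemic injury, among 13 and 14 compared, and Mt2 is the 14th, admitted by its ischemic level of 107 CPM. Hapln2 was the 1 of 9 genes for channels and axon support that passed, on the lower side in both comparisons. Slc16a1, which exports lactate to axons, was at 89.4, 82.6 and 55.0 CPM. Of growth inhibitors carried by myelin, 6 were compared after physical injury and none passed, and 7 after ischemic injury. The added one, Sema5a, reached the minimum only there and passed, at 5.35, 10.1 and 54.8 CPM, while Rtn4, which encodes Nogo, was at 1836, 1830 and 1987 CPM. Of the cell cycle list Pcna alone reached 50 CPM, at 82.5, 73.5 and 73.8 CPM. Of the 6 secreted factors compared, Vegfa and Cxcl12 were higher and Il33 lower after physical injury, and Cxcl12 higher and Il33 lower after ischemic injury. Vegfa and Cxcl12, at 37.4 and 24.5 CPM in naïve OLs, were compared only through their injured levels. Over all genes compared 0.778% were higher and 0.889% lower after physical injury, and 2.97% and 2.22% after ischemic injury.

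**Figure D3:**
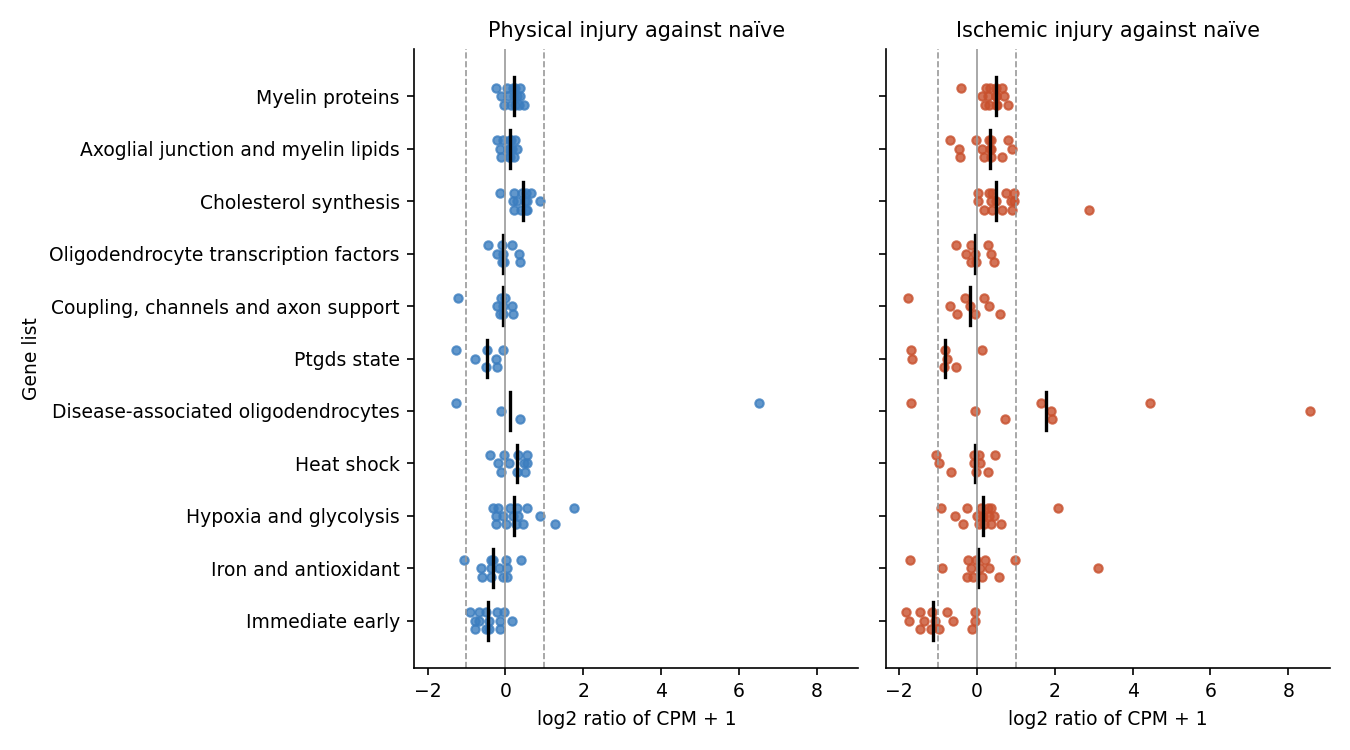
Each point is a gene of the list at left that reached 50 CPM, placed at its log2 ratio of CPM + 1 in mature OLs of an injured library over naïve, and black bars are list medians. Dashed lines mark 2-fold. The medians of the myelin and cholesterol lists lie to the right of 0, with Hsd17b7 after ischemic injury as their 1 point past 2-fold, the median of immediate early genes lies to the left, and the disease-associated list spreads widest of the lists drawn.

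Within the ischemic library Klk6 was found almost entirely in cells with Serpina3n, and other genes in part. The genes of this comparison were chosen after their levels were seen, and it is a description. With OLs thinned to 5000 UMIs, which left out 46 cells, 128 OLs had a Serpina3n UMI and 418 had none. Klk6 was found in 57.0% (48.0% to 65.7%) of the OLs with Serpina3n and in 0.957% (0.261% to 2.43%) of the OLs without Serpina3n. C4b was found in 68.0% and 17.7%, and Syt4 in 20.3% and 0.957%. Of the cells with C4b, 87 had Serpina3n and 74 did not. Of the 77 OLs with Klk6, 73 also had Serpina3n, so Klk6 was nearly nested within the Serpina3n cells. Gadd45g had a UMI in 64.1% and 27.3%, Hsd17b7 in 64.1% and 25.1%, B2m in 44.5% and 14.6% and H2-D1 in 39.8% and 18.4% of the cells with and without Serpina3n. Il33, which was lower in the library as a whole, was found in 60.2% of the cells with Serpina3n and 30.1% of those without. Grm3 ran the other way, at 20.3% and 42.6%. The myelin gene Mog had a UMI in 95.3% and 99.3%. After physical injury 15 thinned OLs had Serpina3n, and Klk6 was in 53.3% (26.6% to 78.7%) of them and in 0.725% of the rest.

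**Figure D4:**
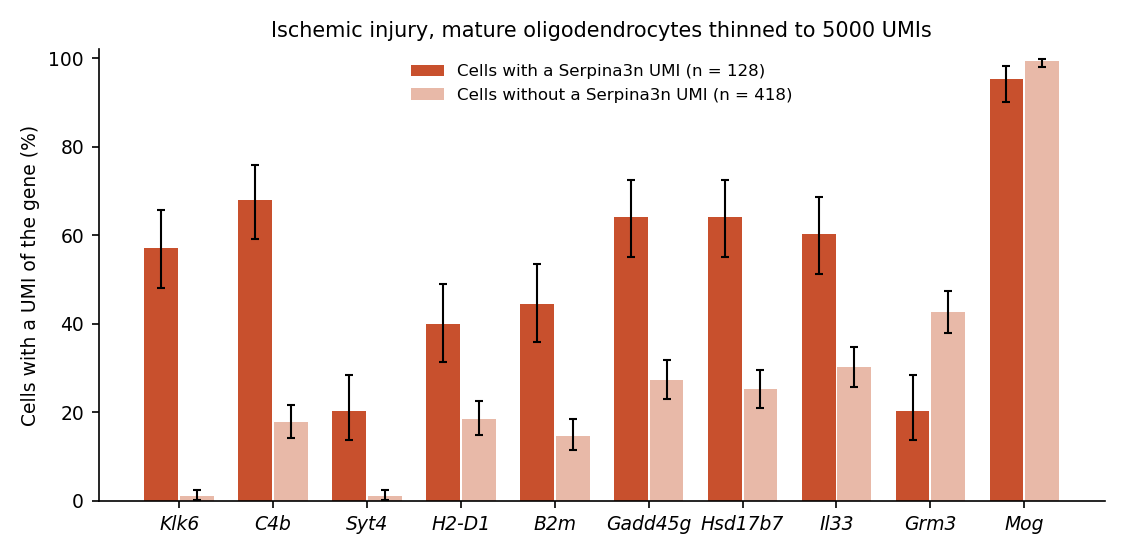
Percent of ischemic injury OLs, thinned to 5000 UMIs, with a UMI of each gene, for the 128 cells with a Serpina3n UMI (dark bars) and the 418 without (light bars). Lines are 95% exact Clopper-Pearson intervals. Klk6 reaches 57.0% against 0.957%, Grm3 is lower beside Serpina3n, at 20.3% against 42.6%, and Mog is at 95.3% and 99.3%.

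The methods give equal numbers of female and male cortices in each pool, but cells with Xist and with Y transcripts were not found in equal shares. Cells with Xist, the RNA that silences the second X chromosome, and no transcript of 4 Y-linked genes accounted for 84.5% of naïve OLs. Their share was 63.9% in OLs of the physical injury library and 38.5% in those of the ischemic one. Cells with Y transcripts and no Xist were 10.7%, 29.3% and 48.3%. Outside cluster 4, 59.6%, 63.8% and 32.9% of cells had Xist only and 18.6%, 20.1% and 42.3% had Y transcripts only. Both shares were higher there after physical injury than in naïve, while cells with neither were 20.6%, 14.6% and 22.4%. The ischemic share of cells with Xist only was the lowest both in OLs and outside cluster 4. These shares are of cells and not of animals. Sex of the cells and injury can therefore not be told apart for the libraries as wholes, and the levels were also taken within each kind of cell. Serpina3n was at 0, 115 and 411 CPM in OLs with Xist only and at 0, 54.6 and 324 CPM in those with Y transcripts only. Apoe was at 2174, 429 and 170 CPM and at 1158, 369 and 260 CPM. Spock3 was at 168, 20.8 and 7.42 CPM and at 160, 16.4 and 20.7 CPM. For these 3 genes the naïve library stood apart from both injured libraries in both kinds of cell. The naïve values of cells with Y transcripts rest on 11 cells. H2-D1 was at 32.2, 35.0 and 176 CPM in cells with Xist only and at 18.5, 63.3 and 64.9 CPM in those with Y transcripts only. The step of H2-D1 from physical to ischemic injury was thus present in cells with Xist and within the counting error in those with Y transcripts.

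**Figure D5:**
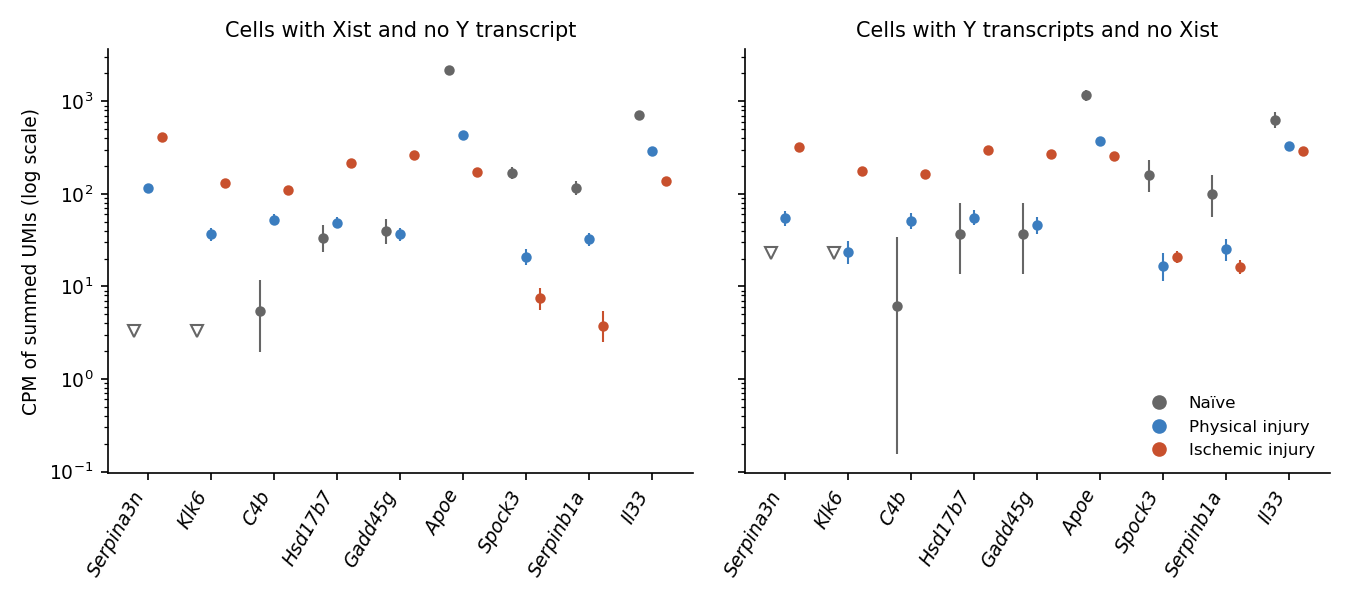
Levels in mature OLs with Xist and no Y transcript (left) and with Y transcripts and no Xist (right), as CPM on a log scale with 95% exact Poisson intervals. Open triangles stand for no UMI and are drawn at the upper limit of that interval. The order of the 3 libraries is alike in both panels for Serpina3n, C4b, Apoe and Il33, and Spock3 has its lowest level after ischemic injury on the left and after physical injury on the right.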

How the data were processed

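Per the labels and methods, the authors sorted tdT+/DAPI- cells, made 10x Genomics 3' v3 libraries, and counted UMIs with Cell Ranger (7.0.0 in the submitters' processing notes) on mm10. The deposited values are raw UMI counts per gene and cell for cells that had passed the authors' filters (a minimum of 200 genes, an upper limit of 12% mitochondrial RNA, and depth not over 2 SD from average). Cluster numbers and the percent of mitochondrial transcripts were deposited by the authors from Seurat. Clusters were formed on all 3 NG2 libraries after integration. Neither labels nor methods mention doublets, and none were removed here.

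UMIs were summed over cluster 4 of each library and scaled to CPM, with 22833 genes in the table. Log2 ratios used a pseudocount of 1 CPM and a minimum of 50 CPM in either library. Ratios have 95% exact conditional binomial intervals. With 1 library a group, no test between conditions was made. Named genes are the 12 largest ratios each way with a higher level in OLs than in the other cells, without mitochondrial, ribosomal, sex-linked and predicted genes, and, from each of 39 gene lists, the 2 most abundant and up to 3 with the largest ratios. Cell type markers and Bst2, Tap1, Enpp6, S100b, Myrf, Btg2, Dusp1 and Ier2 are named outside this rule and were chosen after their values were seen. The members and lists were chosen with earlier results of these data known. Thinning drew UMIs without replacement. The ratio script was tested on simulated data. Positions come from GENCODE M21 (mm10), which may not be the authors' release. The alternatives were TMM factors, other totals, pseudocounts, minimums, cell filters and per-cell means. Software was Python 3.11.15, numpy 2.4.6, pandas 2.3.3, scipy 1.17.1, matplotlib 3.10.9, R 4.3.3 and edgeR 4.0.16. A few genes of the lists are not reported here.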

Additional observations from a re-analysis of the deposited data

Results flagged for a closer look

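In 3 genes the log2 ratio of physical injury over naïve had opposite signs in OLs with Xist only and in OLs with Y transcripts only. B2m was at -0.18 in cells with Xist and 1.20 in cells with Y transcripts, Fos at -0.86 and 0.14, and Gadd45g at -0.11 and 0.31. Each value compares 1 library with 1 library, the naïve cells with Y transcripts number 11, and the differences were not tested. In those 11 cells B2m rested on 4 UMIs, Gadd45g on 6 and Fos on 249. No group has enough libraries for a search for libraries that stand apart.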

How the results depend on the processing

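Of 108 ratios past 2-fold of named genes, all 108 kept their direction with TMM factors, other totals, per-cell means and marker filters. So they did with the naïve clustering and without the cell with most UMIs of the gene. Other minimums leave a ratio unchanged and other pseudocounts cannot turn its sign, so keeping direction there was fixed beforehand. With thinned cells and with Xist-only cells 107 kept it. Under a filter of at most 5% mitochondrial transcripts and depth within 2 SD 101 did. Mrc1 had a ratio of 0 with thinned cells, and Ddx3y one of 0 in Xist-only cells, which by their definition hold no Y transcript. Still past 2-fold in the same direction were 88 under that filter, 90 with thinned cells, 94 with per-cell means, 98 with a pseudocount of 5 CPM, 98 in Xist-only cells, 104 without the cell with most UMIs, 105 without cells over 1% of other markers, 107 with TMM factors and all 108 with the rest. The alternatives with Xist-only cells and without the cell with most UMIs were chosen after seeing the data. Counts past 2-fold are given in the order higher and lower after physical injury, then higher and lower after ischemic injury. From 28, 32, 110 and 82 they became 62, 61, 260 and 131 with a minimum of 20 CPM. With no minimum but at least 10 UMIs they were 654, 296, 1516 and 401. With cells thinned to 2000 UMIs, and so with far fewer UMIs in all, they were 144, 166, 211 and 141. Under the filter of at most 5% mitochondrial transcripts and depth within 2 SD they became 379, 494, 515 and 547. That filter keeps 10 of 103 naïve cells, and its limits on mitochondrial transcripts and on depth were not applied separately. Its depth limits were set on all cells of each library, where OLs are deeper than the median cell. The share of OLs among OLs and OPCs was 17.9%, 33.2% and 62.8% under that filter, and with cluster 7 added it was 43.8% and 44.7% in the injured libraries. Under the same filter on mitochondrial transcripts and depth the log2 ratio changed sign for Gadd45b (0.43), Kctd16 (0.46) and Tenm2 (0.11) after physical injury. It also changed sign for Mrc1 (0.23), Socs3 (-0.58) and Vtn (1.68) after ischemic injury, and the physical injury ratio of Cldn5 became 0. The cause was not tested.

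No paired analysis was possible because each group has 1 library, and for the same reason no replicate could be left out. The naïve OLs limit the depth: 3 counts there are 2.29 CPM, against 0.426 and 0.173 CPM in the injured libraries, so ratios to low naïve levels have wide intervals. Counting error leaves out differences between animals, pools, sorts and runs.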
